A study of Mus musculus with 9 samples.

Results

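The resting plantaris, a fast muscle of the hind limb that extends the ankle, is described here from its 3 control libraries, out of 9 libraries in the series. The 3 were chosen by their label, which places them in the unexposed group at 0 h, and no value measured in them entered the choice. The study exposed 3-month-old male mice of the C57BL/6J strain to 8% oxygen for 0, 2 or 6 h and sequenced RNA of the plantaris. The control group is the 0 h group of that series. The protocol states that the mice were killed by cervical dislocation under a mask filled with 8% oxygen, and its wording does not set the controls apart. The muscles were kept in RNAlater, the RNA had integrity numbers (RIN) from 9.5 to 10.0 over the whole series, and TruSeq libraries were read as paired 100-base reads. Whether the 3 came from different mice is left unsaid in the labels, so the spread below is that between 3 libraries. No comparison with exposed muscle is made.

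Skeletal muscle fibres contract when calcium released from the sarcoplasmic reticulum binds troponin on the thin filament and lets myosin heads of the thick filament pull on actin. Mammals keep separate genes for fast and slow versions of most of these proteins, so the paralogue that a muscle uses marks its fibre type. Fast glycolytic fibres are known for the 2B myosin heavy chain, for fast calcium pumping and buffering, and for ATP made from glycogen and phosphocreatine, whereas oxidative fibres lean on mitochondria and myoglobin.

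Levels are RPKM, read counts scaled for exon length and library size, as the authors deposited them for 13722 genes, so genes can be compared with one another per unit length. Values are given as mean ± SD over the 3 control libraries, named control 1 to control 3. The reads behind the RPKM, recovered from the steps between low values, summed to 124371299, 109220432 and 117684241 in controls 1 to 3. The labelled tissue was checked against its defining genes. The 5 fast members of the troponin complex and light chains (Tnnt3, Tnni2, Tnnc2, Mylpf and Myl1) stood among the 7 most abundant transcripts in the mean, and the slow myosin heavy chain Myh7 had 1.93 ± 0.983 RPKM.

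Control 1 stood apart from the other libraries before any single result is read. Across 11648 genes with a mean of at least 1 RPKM, Pearson's r of log2(RPKM + 0.5) was 0.963 between controls 1 and 2, 0.974 between controls 1 and 3, and 0.988 between controls 2 and 3. These are correlations across genes of libraries, and genes are not independent replicates. The 13 macrophage markers, which mark resident and infiltrating phagocytes, summed to 50.9 RPKM in control 1, 213 in control 2 and 232 in control 3. Each of the 13 was lowest in control 1, against 40.4% of the 11648 genes. Levels are therefore given by library where this library lies away from the others, and the shares and sums that it moves most are also given without it. In RNA of whole muscle, fewer cells of a type and less RNA per cell cannot be told apart.

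Contractile and glycolytic genes took a large share of the transcriptome. The 10 most abundant genes held 28.5%, 28.8% and 29.9% of the summed RPKM in controls 1, 2 and 3, a mean of 29.0 ± 0.731%. Of the recovered reads, in which long genes weigh more, the same 10 genes held 18.1 ± 0.715%. The 100 most abundant held 52.7 ± 0.464%, and 50% of the summed RPKM was reached with 78, 80 and 74 genes in the 3 libraries. Of the 13722 genes, 11648 had a mean of at least 1 RPKM, 3982 of at least 10, 564 of at least 100 and 47 of at least 1000. Most leading genes were shared, since 9 of the 10, 36 of the 40 and 87 of the 100 most abundant genes in the mean stood within that rank in every library.

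**Figure D1:**
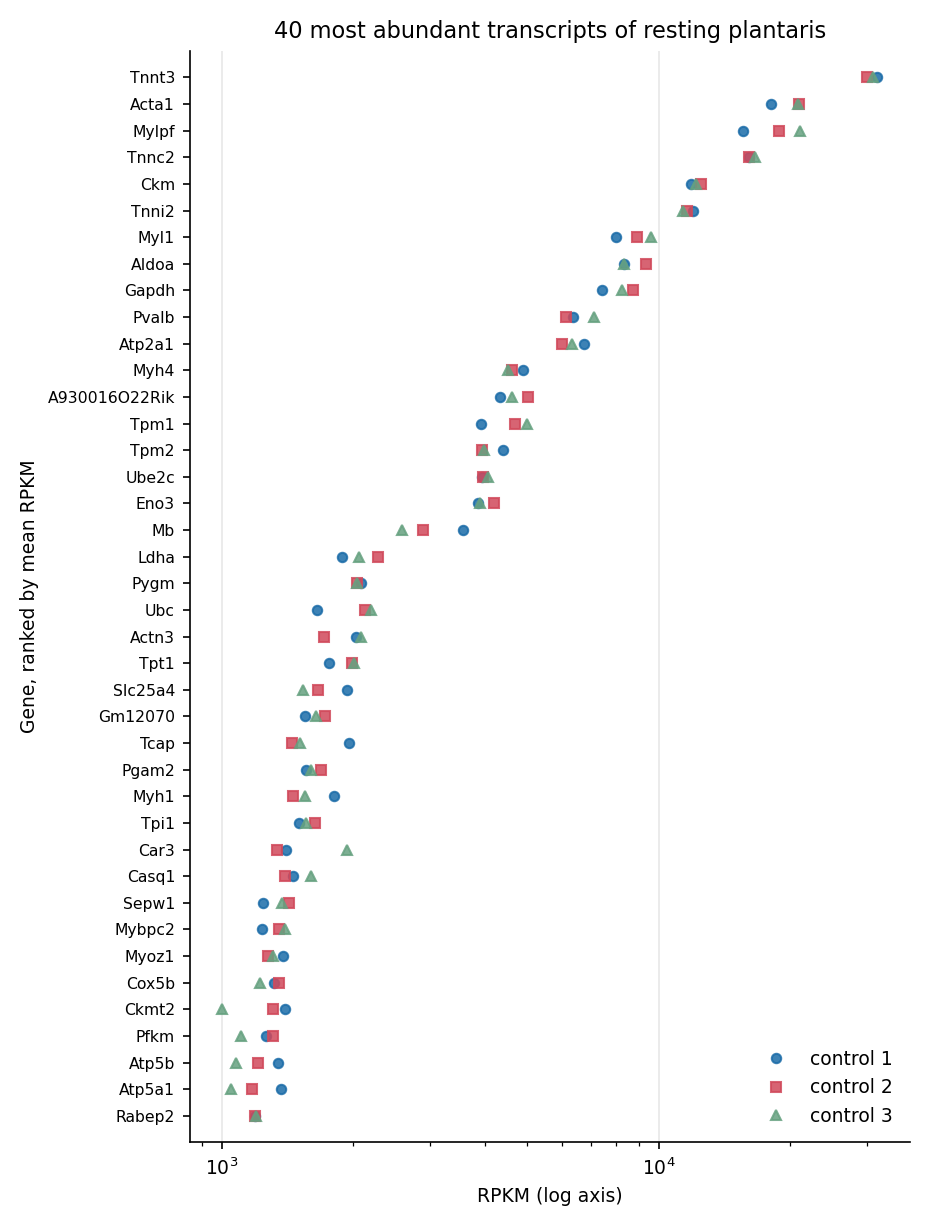
RPKM of the 40 most abundant genes in each control library, on a log axis, with genes ordered by mean RPKM and 1 symbol per library. Tnnt3 leads in every library with 30028 to 31638 RPKM, and for most of the 40 genes the 3 symbols lie close together, while Mb and Ckmt2 are highest in control 1 and lowest in control 3.

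Tnnt3, the fast troponin T that anchors the troponin complex to tropomyosin, was the most abundant transcript, with 31638, 30028 and 30919 RPKM in controls 1 to 3. It alone made up 6.33 ± 0.305% of the summed RPKM. The authors' coordinates place it on chromosome 7 from 149684741 to 149701914 on the plus strand, with Tnni2, the fast inhibitory subunit, on the same chromosome from 149627713 to 149630315. Tnni2 had 11982, 11618 and 11378 RPKM, and Tnnc2, the fast calcium-binding subunit, had 16107, 16078 and 16651 RPKM. All 3 fast subunits varied little, with SDs of 807, 304 and 323 RPKM around means of 30862, 11660 and 16279.

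The slow and cardiac troponins were scarce, and they varied far more between libraries. Fast subunits made up 99.7 ± 0.148% of troponin T, 99.8 ± 0.157% of troponin I and 99.9 ± 0.0637% of troponin C. Tnnt1, the slow troponin T, had 30.5 RPKM in control 1, 93.7 in control 2 and 71.8 in control 3. Tnni1, the slow troponin I, had 7.03, 43.6 and 23.7 RPKM, and Tnnc1, shared by slow fibres and heart, had 6.06, 26.2 and 13.4. Tnnc1 is listed under a pair of overlapping entries, of which the more abundant is given, and both overlap Nisch on the other strand, so its level is uncertain. Each of these slow forms was lowest in control 1 and highest in control 2. Tnnt2, the cardiac troponin T that immature muscle also uses, had the same order with 6.92, 30.5 and 19.8 RPKM.

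Actin was nearly all of the skeletal form. Acta1, skeletal alpha-actin, had 18111, 20918 and 20842 RPKM and made up 98.5 ± 0.337% of the 6 actins. Actc1, the cardiac alpha-actin that developing skeletal muscle also makes, had 8.13, 116 and 68.6 RPKM, so control 1 was far below the others. The cytoplasmic actins Actb and Actg1 had 119 ± 22.8 and 79.7 ± 13.6 RPKM. Actins are closely alike in coding sequence, and how the authors treated reads that match several genes is not given in the sources used here, so the small shares are uncertain.

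Tropomyosin, the rod that covers the myosin sites on actin, was a family without a clear leader by RPKM. Tpm1, the fast alpha form, had 3915, 4693 and 4992 RPKM, and Tpm2, the beta form, had 4409, 3953 and 3990. Tpm2 thus led in control 1 and Tpm1 in controls 2 and 3, with mean shares of 52.1 ± 4.55% for Tpm1 and 47.5 ± 4.62% for Tpm2. This order depends on the counted length, 5084 bases for Tpm1 and 2769 for Tpm2. In recovered reads Tpm1 led in every library, with 2475375, 2606069 and 2987025 against 1518393, 1195610 and 1300150. Tpm3, the slow alpha form, held 0.161 ± 0.0399%.

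The sarcomeric myosin heavy chains, the motors of the thick filament, were led by the fast 2B gene. Myh4 (2B) had 4906, 4607 and 4534 RPKM, Myh1 (2X) 1806, 1457 and 1550, and Myh2 (2A) 704, 407 and 425. Control 1 was the highest library for all 3, and relative to the level of the gene its margin was widest for Myh2. As shares of the 9 family members with a value, Myh4 made up 68.5 ± 2.51%, Myh1 23.4 ± 0.964% and Myh2 7.38 ± 1.78%. Without control 1 the Myh4 share was 69.9%. Myh8, the perinatal chain, had 32.8 ± 2.47 RPKM, and the slow Myh7 held 0.0286 ± 0.0158% of the family. Myh3, the embryonic chain, had 0.850, 12.0 and 5.80 RPKM, which was again lowest in control 1.

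In the authors' coordinates, for which the submitters' processing notes name build mm9, these fast and developmental chains form a single array on chromosome 11, between 66891802 and 67185088, in the order Myh3, Myh2, Myh1, Myh4, Myh8 and Myh13, all on the plus strand. Mean levels along the array were 6.22, 512, 1604, 4682, 32.8 and 7.95 RPKM, so the 3 adult fast genes sit next to each other, with Myh4 outermost among them. The promoter windows of the 3 adult fast chains and of the slow Myh7 are shown because they set neighbours of unequal level beside a gene of low level. Each window holds 250 bases before and 50 from the start of the RefSeq transcript in build GRCm38.p6, which is not the build of the authors' coordinates. The search was for TATAAA and for CANNTG, the E-box that myogenic factors can bind, on both strands, and every match is in capitals, with no overlap between matches.
Myh2, chr11:67170777-67171076, plus strand: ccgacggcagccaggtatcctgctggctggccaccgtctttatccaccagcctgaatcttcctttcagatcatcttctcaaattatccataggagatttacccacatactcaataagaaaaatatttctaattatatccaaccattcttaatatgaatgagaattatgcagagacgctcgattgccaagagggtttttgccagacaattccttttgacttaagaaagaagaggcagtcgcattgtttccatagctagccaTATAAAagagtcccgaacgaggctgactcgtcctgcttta
Myh1, chr11:67199852-67200151, plus strand: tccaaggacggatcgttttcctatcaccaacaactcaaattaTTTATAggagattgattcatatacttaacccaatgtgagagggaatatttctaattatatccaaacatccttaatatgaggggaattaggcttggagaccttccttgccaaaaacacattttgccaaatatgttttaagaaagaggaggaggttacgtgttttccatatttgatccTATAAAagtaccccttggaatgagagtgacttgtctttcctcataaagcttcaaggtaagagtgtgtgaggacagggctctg
Myh4, chr11:67237562-67237861, plus strand: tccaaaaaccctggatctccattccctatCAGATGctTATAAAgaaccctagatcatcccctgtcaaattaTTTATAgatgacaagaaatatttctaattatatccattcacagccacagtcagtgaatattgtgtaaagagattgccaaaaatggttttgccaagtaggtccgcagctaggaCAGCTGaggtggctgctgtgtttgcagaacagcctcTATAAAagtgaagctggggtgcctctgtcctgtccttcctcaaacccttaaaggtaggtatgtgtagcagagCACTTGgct
Myh7, chr14:54994577-54994876, minus strand: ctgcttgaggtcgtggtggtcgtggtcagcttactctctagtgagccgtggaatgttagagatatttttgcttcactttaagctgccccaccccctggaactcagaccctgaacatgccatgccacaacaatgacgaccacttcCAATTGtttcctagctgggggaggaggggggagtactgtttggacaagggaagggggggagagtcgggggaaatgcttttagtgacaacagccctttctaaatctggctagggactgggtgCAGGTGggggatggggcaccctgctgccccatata
On the gene's strand, TATAAA began 32 bases before the start in the Myh1 window, at 31 and at 213 bases before it in the Myh4 window, and at base 11 of the annotated transcript in the Myh2 window. The Myh7 window held no TATAAA. The E-box letters were found 3 times in the Myh4 window, 2 times in that of Myh7, and in neither of the other windows. Of 27025 RefSeq genes with a window, 14.2% held TATAAA and 72.1% held CANNTG on either strand. A match describes the letters of the window and does not show that a factor binds there.

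The light chains followed the same fast bias. Mylpf, the fast regulatory light chain, had 15575, 18851 and 21051 RPKM, and Myl1, the fast essential light chain, had 7986, 8936 and 9631. Both were lowest in control 1 and highest in control 3. Myl2, the slow regulatory chain, had 398 ± 63.4 RPKM, or 1.45 ± 0.421% of the 9 light chains. Myl4, the embryonic light chain, had 2.00, 25.2 and 13.4 RPKM in controls 1 to 3. Among the myosin binding proteins, which brace the thick filament, the fast Mybpc2 held 59.8 ± 4.85% and Mybpc1, listed as the slow form, 38.5 ± 6.24%. Mybpc1 had 1038 RPKM in control 1, 725 in control 2 and 811 in control 3, while Mybpc2 was lowest in control 1 with 1237. The slow troponins held far smaller shares and had the reverse order to Mybpc1, whose share is not read here as one of slow fibres. Mybph, another thick filament protein, had 1.67, 68.8 and 35.2 RPKM, though it overlaps Adora1, and use of strand by the authors' counter is not given in the sources used here.

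Z-discs, which join sarcomeres end to end, were marked by the fast alpha-actinin. Actn3 had 2029, 1715 and 2085 RPKM and made up 83.8 ± 2.45% of the 4 alpha-actinins, with Actn2, the form shared with heart, at 15.5 ± 2.38%. Tcap, the cap of titin, had 1954, 1452 and 1510 RPKM, and Myoz1, a fast calsarcin that tethers calcineurin, had 1324 ± 53.5 RPKM or 92.4 ± 0.815% of the 3 myozenins. The 29 Z-disc and M-band genes listed held 2.42 ± 0.0457% of the summed RPKM. Cryab, a small heat shock protein of the Z-disc, was the only gene above 1000 RPKM in the mean that differed at least 2-fold between libraries, with 610, 1545 and 1059 RPKM. Its lowest value was in control 1, as for Csrp3, a LIM protein that takes part in stretch sensing, with 101, 445 and 300 RPKM, and Xirp1, an actin-binding repeat protein, with 16.5, 74.4 and 52.0.

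The family of stretch-linked proteins, a list of 4 that groups LIM and ankyrin proteins, had the least steady leading share of all families. Ankrd23 held 82.3% of it in control 1, 48.9% in control 2 and 59.6% in control 3, and 54.3% in the mean without control 1. Its own level differed little, with 969, 799 and 796 RPKM, while the other listed members varied more. Ankrd1 had 6.25, 106 and 39.3 RPKM and Ankrd2 had 101, 282 and 200. The LIM protein Csrp3, whose levels are given above, is the remaining member and stood above both in controls 2 and 3. The MuRF proteins, ubiquitin ligases of the sarcomere, differed in order between libraries. Trim63 (MuRF1) had 168, 419 and 374 RPKM and Trim54 (MuRF3) 279, 307 and 264. Trim54 led in control 1 and Trim63 in controls 2 and 3, so the Trim63 share was 49.8 ± 12.0% with control 1 and 56.8% without it.

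Calcium handling genes were led by their fast forms. Atp2a1, the fast SERCA pump that returns calcium to the sarcoplasmic reticulum, had 6741, 6013 and 6342 RPKM and 99.7 ± 0.116% of the SERCA family. Pvalb, parvalbumin, the soluble calcium buffer of fast fibres, had 6377, 6144 and 7132 RPKM, and Casq1, the fast calcium store protein, had 1456, 1394 and 1601. Ryr1, the calcium release channel, had 259, 155 and 190 RPKM, and Cacna1s, its voltage sensor in the T-tubule, had 212, 135 and 162. Both channels were highest in control 1 and lowest in control 2. Among the small regulators of SERCA, the gene listed as 2310015B20Rik, which RefSeq names Mrln (myoregulin), had 118 ± 8.70 RPKM and 92.3 ± 5.49% of 3 members. Sln, sarcolipin, had 1.10, 14.4 and 11.3 RPKM, and Pln, phospholamban, 0.780 ± 0.198. The 16 genes of excitation-contraction coupling held 2.04 ± 0.161% of the summed RPKM.

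Calcineurin, a calcium-activated phosphatase, had no clear leader among its catalytic subunits, of which Ppp3cb held 46.8 ± 1.72% and Ppp3ca 44.3 ± 2.42%.

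Enzymes of ATP supply by phosphocreatine and glycolysis were the next large group. Ckm, the muscle creatine kinase, had 11888, 12528 and 12202 RPKM and made up 90.8 ± 1.48% of the creatine kinases, with Ckmt2, the mitochondrial form, at 9.18 ± 1.48%. The 15 glycolytic enzymes listed held 6.04 ± 0.27% of the summed RPKM. Aldoa, aldolase A, with 8681 ± 578 RPKM, Gapdh with 8136 ± 660 and Eno3, the muscle enolase, with 3992 ± 189 led them. Among the 15 enzymes, 14 were highest in control 2, against 36.4% of all genes with a mean of at least 1 RPKM, and Ldhb was highest in control 1.

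Muscle isoforms of glycolysis stood nearly alone in their families. Aldoa held 100.0 ± 0.0055% of aldolase with Aldoc at 0.00665 ± 0.0055%, Pgam2 99.4 ± 0.145% of phosphoglycerate mutase, Eno3 99.3 ± 0.188% of enolase and Pfkm 99.4 ± 0.159% of phosphofructokinase. Pygm, muscle glycogen phosphorylase, which releases glucose units from glycogen, had 2084, 2036 and 2040 RPKM and 99.9 ± 0.0296% of its family. Ldha, which makes lactate, held 91.3 ± 1.94% of the lactate dehydrogenases and Ldhb 7.89 ± 1.92%. Among transporters, Slc2a4 (GLUT4), the insulin-responsive glucose carrier, had 140 ± 10.4 RPKM and Slc16a3 (MCT4), the lactate exporter of glycolytic fibres, 142 ± 5.79, against 12.7 ± 0.716 for Slc16a1 (MCT1). Gm12070, a predicted gene of rank 25 with 1639 ± 84.9 RPKM, overlaps no other gene in the table. The authors' class column lists it as a transcribed processed pseudogene, so it may share reads with the gene it copies, and its level is uncertain.

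Mitochondrial genes of the nucleus were abundant too, although no gene of the mitochondrial chromosome is in the table used here. The 88 genes of the electron transport pathway, as the authors' annotation column groups them, held 7.58%, 6.88% and 6.51% of the summed RPKM in controls 1 to 3, a mean of 6.99 ± 0.543%. Slc25a4, the muscle ADP/ATP carrier, led them with 1934, 1658 and 1536 RPKM. Cox5b, a cytochrome oxidase subunit, came next with 1321, 1350 and 1225 RPKM and was highest in control 2. The ATP synthase subunits Atp5b and Atp5a1 followed with 1211 ± 136 and 1197 ± 157 RPKM. Mb, myoglobin, which stores oxygen in muscle, had 3574, 2896 and 2581 RPKM. Slc25a4, both ATP synthase subunits and Mb were highest in control 1 and lowest in control 3. Atp5l, subunit g of the ATP synthase, was steady at 876, 869 and 873 RPKM.

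The listed oxidative enzymes followed the same order. All 17 listed enzymes of the citrate cycle and all 17 of fatty acid oxidation were highest in control 1, where 40.4% of all genes with a mean of at least 1 RPKM were. Control 3 was the lowest library for 14 of the former and 16 of the latter, against 25.1% of all those genes. The classes held 0.952 ± 0.133% and 0.399 ± 0.061% of the summed RPKM. Acadm, which oxidises medium-chain fatty acids, had 198, 140 and 132 RPKM. Among the 88 electron transport genes, 62 were highest in control 1 and 65 lowest in control 3. Glycogen enzymes showed no single order, with 7 of 11 highest in control 1.

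Several mitochondrial proteins have a muscle or heart paralogue, which led its family here. Cox6a2 held 96.3 ± 0.445%, Cox8b 95.1 ± 0.504% and Cox7a1 71.6 ± 1.82% of their cytochrome oxidase families. The c subunit of the ATP synthase, by contrast, came from 3 genes, Atp5g1 with 45.6 ± 0.221%, Atp5g3 with 36.3 ± 1.08% and Atp5g2 with 18.1 ± 0.888%. The mitochondrial pores Vdac1, Vdac3 and Vdac2 held 58.8 ± 2.09%, 31.6 ± 1.45% and 9.64 ± 0.648%. Pdk4, the kinase that closes the entry of pyruvate, led its family at 74.6 ± 5.73% with 440, 539 and 591 RPKM.

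Translation genes combined a muscle-type and a ubiquitous paralogue that behaved differently between libraries. Eef1a2, the elongation factor of adult muscle and neurons, had 524, 503 and 484 RPKM, while the ubiquitous Eef1a1 had 238, 502 and 465. Rpl3l, the muscle-type ribosomal protein L3, had 421, 398 and 383 RPKM, while Rpl3 had 25.0, 60.7 and 49.3. Both ubiquitous forms were lowest in control 1, and both muscle forms were highest there. The Eef1a2 share of its family was 56.6 ± 10.6% with control 1 and 50.5% without it. Of 77 cytoplasmic ribosomal proteins, 71 were lowest in control 1, against 40.4% of all genes with a mean of at least 1 RPKM. They held 4.23 ± 0.261% of the summed RPKM, led by Rps24 with 754, 881 and 830 RPKM.

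Channels and receptors of the fibre surface were fewer in transcripts. Scn4a, the sodium channel of the action potential, had 38.7 ± 6.09 RPKM and Clcn1, the chloride channel that steadies the resting membrane, 23.8 ± 5.23. Of the acetylcholine receptor, Chrnb1 had 16.5 ± 3.83 RPKM, the adult subunit Chrne 7.44, 7.21 and 7.91, and the fetal subunit Chrng 0.0283, 1.95 and 0.972.

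Transcription factors of muscle identity had modest levels. Myf6 (MRF4), the myogenic factor of adult fibres, had 48.0, 96.4 and 79.4 RPKM and 84.6 ± 4.71% of the 4 myogenic regulatory factors. Myod1 had 5.88, 17.8 and 7.17 RPKM and Myog, myogenin, 0.523, 6.54 and 3.94. All 3 were lowest in control 1 and highest in control 2. Mef2c, a partner of the myogenic factors, had 86.7, 61.4 and 74.0 RPKM and 75.6 ± 1.22% of the 3 MEF2 genes with a value, with the reverse order.

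Regulators of fibre type were led by Tbx15, a factor known from glycolytic fibres of the mouse, with 101, 66.4 and 82.2 RPKM. Control 1 was the highest library and control 2 the lowest. The factors Maf and Mafa, which act on the Myh4 gene in the mouse, had 9.99 ± 1.89 and 7.36 ± 0.515 RPKM. Ppargc1a, the coactivator of mitochondrial genes, had 7.76, 5.85 and 10.9 RPKM. Of 1246 transcription regulators in the authors' class column, 269 had a mean of at least 10 RPKM, against 3982 of all 13722 genes. Csda, a cold shock domain protein, was the most abundant at 887 ± 66.7.

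Among 390 kinases in that class column, 99 had a mean of at least 10 RPKM, against 3982 of all 13722 genes. Pink1, a mitochondrial quality control kinase, had 285 ± 36.2 RPKM and Mylk2, the skeletal myosin light chain kinase, 145 ± 8.26. Mylk4 had 221, 101 and 129 RPKM in controls 1 to 3, a mean of 150 ± 62.3. Of secreted muscle factors, Fndc5, the precursor of irisin, had 27.6 ± 5.46 RPKM, Mstn, myostatin, 17.8 ± 1.77 and Igf1 4.12 ± 0.123. Of 224 long intergenic RNAs in the class column, 41 had a mean of at least 10 RPKM, against the same share of all genes as above. The most abundant, H19, had 106, 307 and 275 RPKM in controls 1 to 3, a mean of 229 ± 108. It overlaps Mir675 on the same strand.

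Over the 68 families with at least 2 members in the table, one member usually held the larger part. Some of these lists group proteins by role and not as paralogues, such as fibre type regulators, secreted muscle factors and stretch-linked proteins. The leading member held at least 90% in 31 families and at least 50% in 57. The SD of the leading share between libraries had a median of 1.56 percentage points. By RPKM, the leading member differed between libraries in 5 families: tropomyosins, MuRF proteins, calcineurin subunits, sarcoglycans and the non-muscle and smooth myosins. The globin family was one of the least steady: Mb held 59.6 ± 16.3%, or 50.8% without control 1, and the red cell globins Hba-a1, Hba-a2, Hbb-b1 and Hbb-b2 varied 2.79- to 3.10-fold. Their near-identical copies share reads in a way the files do not resolve.

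**Figure D2:**
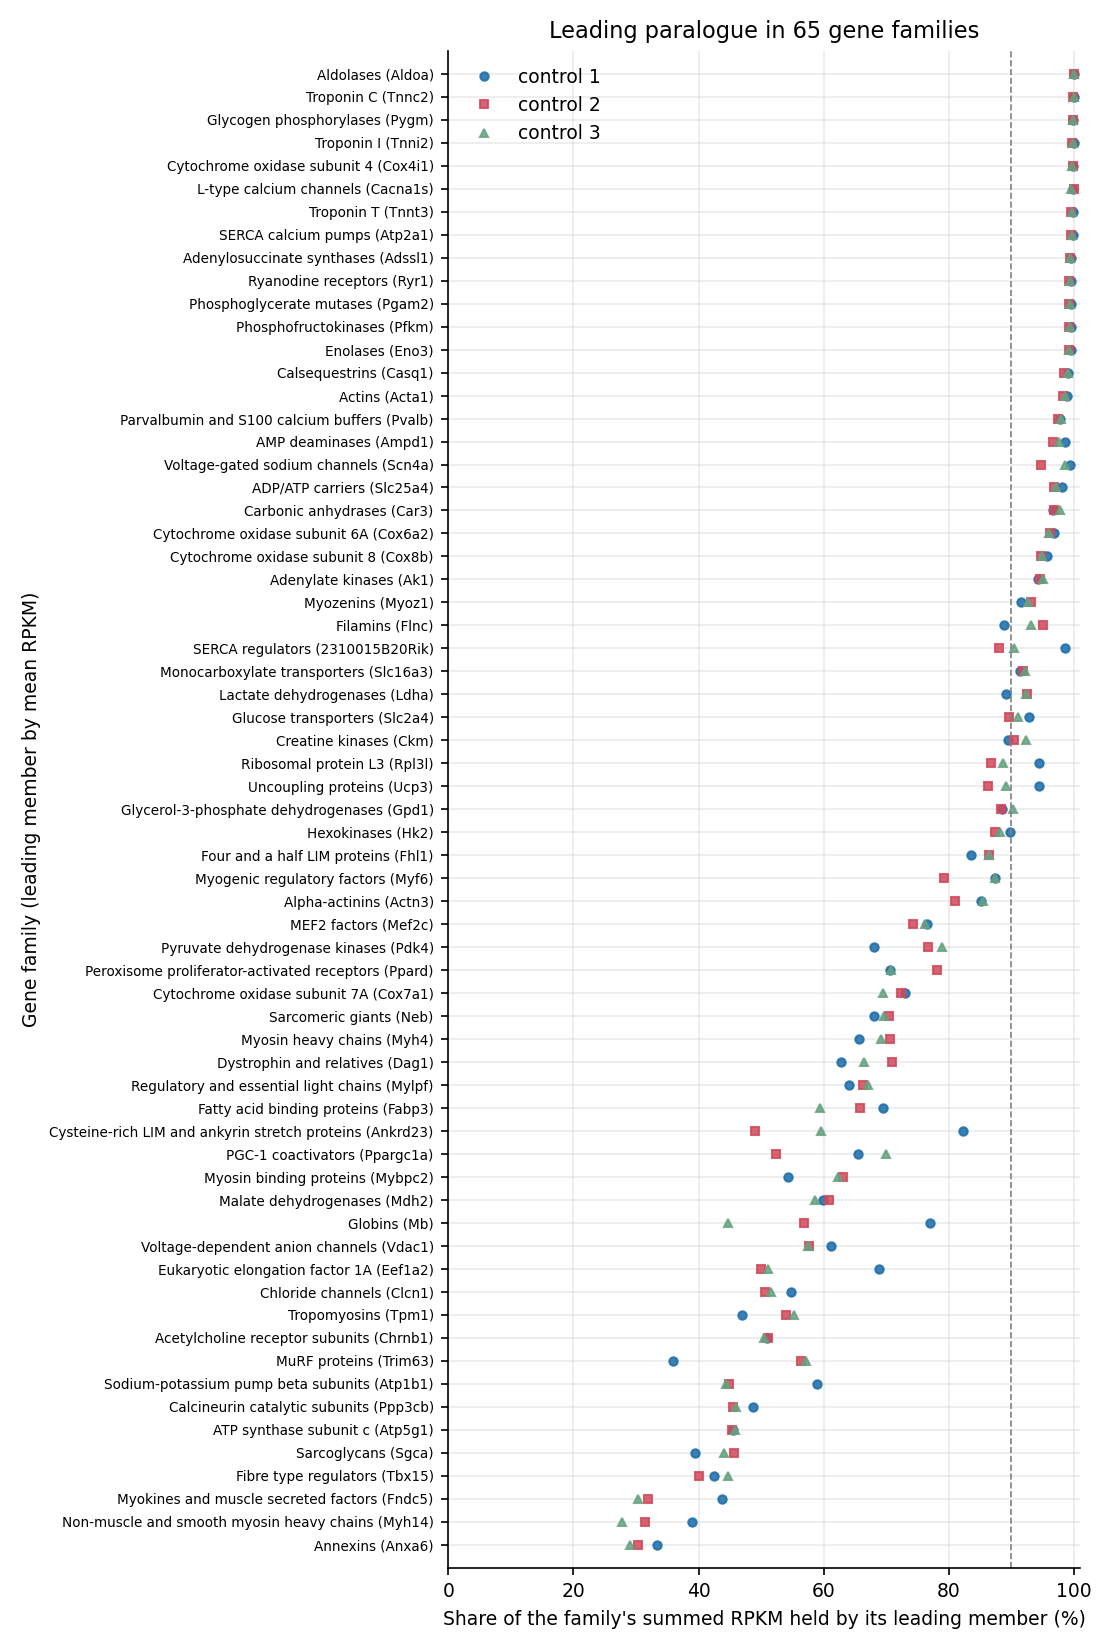
Share of a family's summed RPKM held by its leading member in each control library, for 65 of the 68 families ordered by the mean share, with a dashed line at 90%. The 30 families at the top lie at or above 90% in the mean, most with nearly overlapping symbols. Stretch-linked LIM and ankyrin proteins, globins, MuRF proteins and elongation factor 1A spread widely, with control 1 away from the others.

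The abundant genes clustered by chromosome. Chromosome 7 held 25.4 ± 0.3% of the summed RPKM with 7.5% of the genes, through Tnnt3, Mylpf, Ckm, Tnni2 and Aldoa, and 11 of the 40 most abundant genes. Chromosome 11, with the myosin array, Eno3, Tcap and Pgam2, held 9.23 ± 0.172% with 8.54% of the genes.

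Some abundant entries overlap a more abundant gene, and their level cannot be told apart from it. Of the 100 most abundant genes, 7 do. Ube2c, annotated on the strand opposite Tnnc2, had 24.5%, 24.7% and 24.5% of its RPKM in controls 1 to 3. A930016O22Rik had 38.2 ± 1.84% of the RPKM of Ckm and Rabep2 18.8 ± 1.04% of that of Atp2a1, both again on the opposite strand. The remaining pairs were Gm17224 with Casq1, Gnas with AF085738, Gm10995 with Myh1 and Gm12300 with Myh4. The percentages of Ube2c, Gnas and Gm12300 varied by less than 1 percentage point SD between libraries, while that of Gm10995, counted over only 39 bases, had an SD of 15.7 points.

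The 3 libraries of the resting muscle were close for most genes and further apart for a minority. Of 11648 genes with a mean of at least 1 RPKM, the median coefficient of variation was 11.1%, against 2.39% from counting alone. The highest library was at least 2 times the lowest, on log2(RPKM + 0.5), in 802 genes or 6.89%. Of the 516 tested genes counted over fewer than 200 bases, where a few reads can set the RPKM, 178 were among these 802. For those of the 178 at a few reads, differences between libraries cannot be told from counting noise. Not all are at a few reads. Gm10995, counted over 39 bases, had 5640, 2064 and 3194 recovered reads in controls 1 to 3. Its coefficient of variation was 44.4%, against 1.66% from counting alone. The count of genes at least 2-fold apart was 1387 with each library rescaled to one common sum. That raises every RPKM, which makes the 0.5 smaller against the levels and lets more low genes pass the filter of 1. Among genes with a mean of at least 5 RPKM the count was 321. In 504 of the 802 the odd library was control 1, lying below the others. Without control 1 the count was 174, without control 2 it was 451, and without control 3 it was 647. Among the 47 genes above 1000 RPKM the median coefficient of variation was 7.45%.

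**Figure D3:**
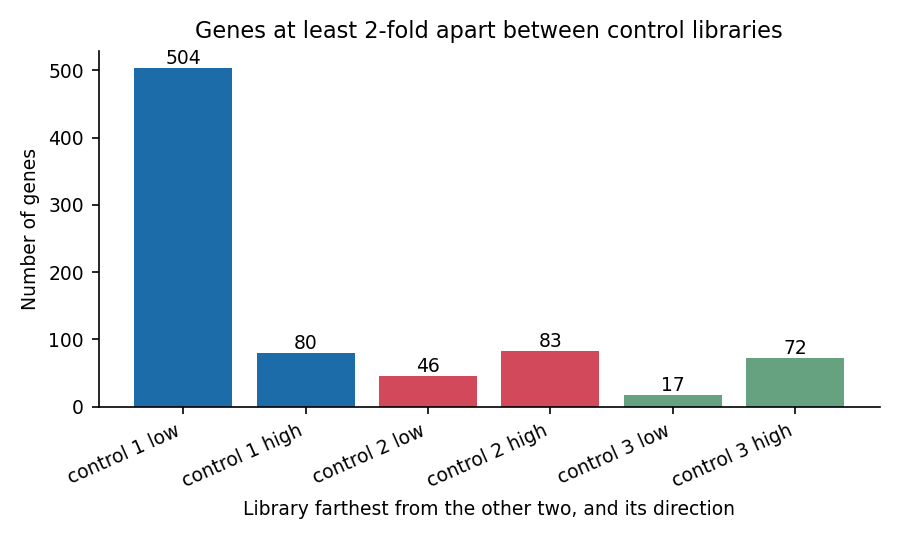
Number of genes with a mean of at least 1 RPKM whose highest control library is at least 2 times the lowest, by the library that lies farthest from the other 2 and by its direction. Control 1 below the others accounts for 504 of 802 genes, while the other 5 patterns hold 17 to 83 genes each. The 802 include 178 genes counted over fewer than 200 bases.

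Of the genes lowest in control 1, those with the widest range between libraries are given first. Rrad, a small GTPase of muscle, had 0.886, 137 and 37.0 RPKM. Hmox1, which degrades haem, had 4.36, 74.3 and 30.8, Timp1, an inhibitor of matrix proteases, 2.32, 48.9 and 17.6, and Postn, a matrix protein, 2.30, 37.4 and 21.9. Serpina3n, a secreted protease inhibitor, had 0.870, 25.8 and 14.4, and S100a8, a calcium-binding protein of neutrophils, 0.599, 19.0 and 4.52. In all 6, control 2 was the highest library and control 3 lay between. Of the 10 embryonic, perinatal and cardiac forms in the family lists, 4 were lowest in control 1 (Myh3, Myl4, Tnnt2 and Actc1), and 5 were highest there, against 40.4% of all genes with a mean of at least 1 RPKM for each direction.

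Fewer genes were high in control 1, 80 of the 802. Cish and Socs2, feedback inhibitors of cytokine and growth hormone signalling, had 26.3, 4.72 and 1.78 RPKM and 11.1, 4.93 and 3.35. Irs1, the insulin receptor substrate, had 10.4, 3.94 and 4.42, and Nos1, the nitric oxide synthase of muscle and nerve, 11.4, 3.90 and 5.25. Control 2 was the high library for Junb, with 2.10, 21.7 and 5.71 RPKM, and Btg2, with 5.36, 27.2 and 10.9, both immediate early genes. Nr4a1, another immediate early gene, was instead highest in control 1, with 73.3, 46.5 and 33.3 RPKM. Control 3 was high for Cfd, adipsin, with 12.1, 16.4 and 73.4 RPKM, and for Mup10, Hp and Cyp2e1, genes best known from liver and fat, with 12.4, 16.0 and 16.9 RPKM there and at most 6.41 elsewhere. Chac1, an enzyme of glutathione breakdown, was lowest in control 3 with 32.5, 26.1 and 14.7 RPKM.

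Markers of other cell types went with these patterns in part. All 13 fibroblast markers were lowest in control 1, against 40.4% of all genes with a mean of at least 1 RPKM. Their sums were 800, 1173 and 1311 RPKM. All 6 erythroid markers with a value were lowest in control 1 and highest in control 3, where 23.2% of all those genes were highest. The erythroid sums were 1064, 2189 and 3184 RPKM. The 4 neutrophil markers with a value summed to 1.17, 40.9 and 12.7 RPKM. Without control 1 the mean sums were 1242 RPKM for fibroblast, 2687 for erythroid and 26.8 for neutrophil markers, against 1095, 2146 and 18.3 with it. Endothelial markers did not follow, with sums of 131, 129 and 134 RPKM over 13 genes. The adipocyte markers summed to 603, 532 and 675 RPKM. Of the 10, 9 were highest in control 3, against 23.2% of all genes with a mean of at least 1 RPKM. Lpl, which fibres also make, was the exception.

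The remaining markers were lower or mixed. Satellite cell markers summed to 46.1, 72.1 and 51.8 RPKM over 7 of 9 genes, with Pax7 and Calcr not analysed here. Smooth muscle and pericyte markers gave 151, 118 and 157 RPKM over 10 genes, nerve and Schwann cell markers 88.4, 70.2 and 65.5 over 9 of 10, and tendon and cartilage markers 182, 299 and 261 over 9 of 10. Of 8 lymphocyte markers, only Cd79b has a value, 0.769 ± 0.434 RPKM over 41 counted bases. Macrophage markers gave a mean of 165 RPKM with control 1 and 223 without it. The part of these cells in the differences between the control libraries was not tested.

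**Figure D4:**
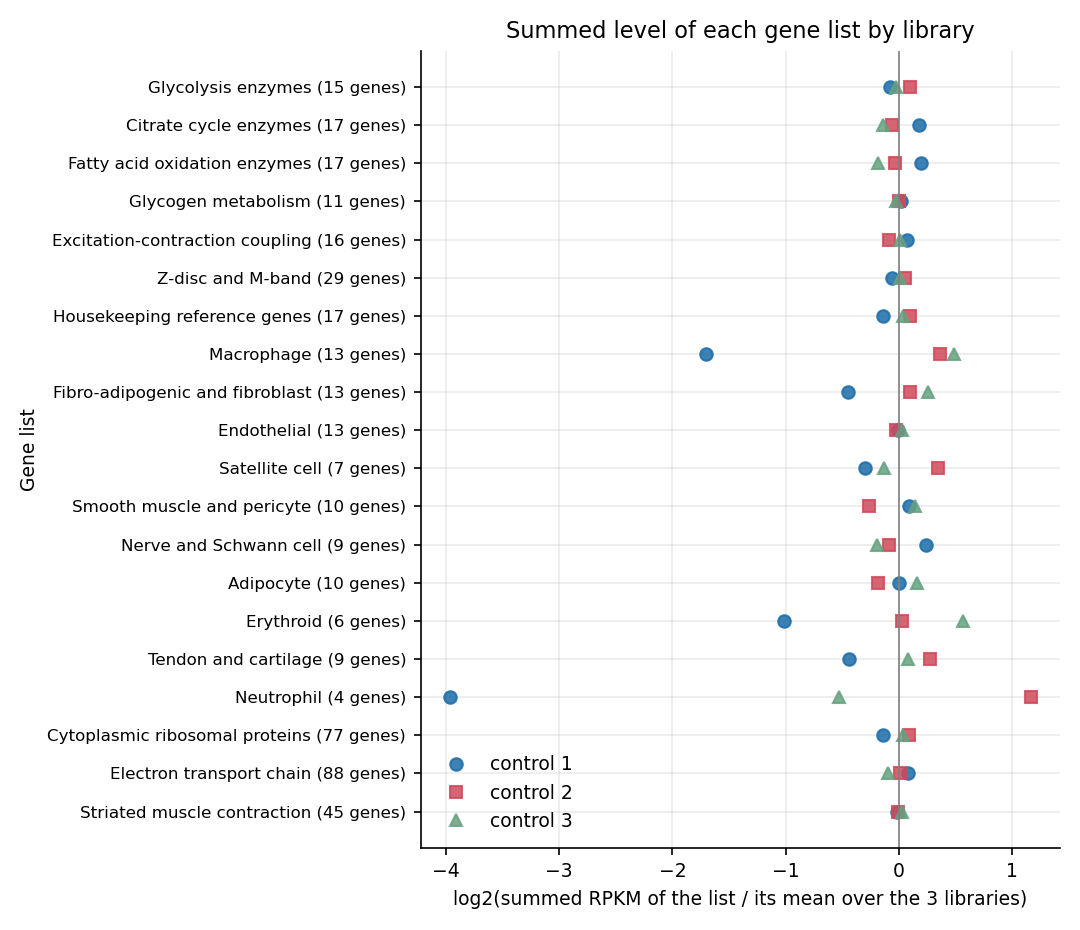
Summed RPKM of each gene list in each control library, as the log2 ratio to the mean of the 3 libraries, with the number of genes that have a value in parentheses. Macrophage, erythroid and neutrophil lists spread most, with control 1 at the low end, while lists of muscle function lie within a narrow band and the citrate cycle and fatty acid oxidation are highest in control 1.

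Differences between the libraries also went with transcript length. Among genes with a mean of at least 1 RPKM, the median difference of control 2 minus control 1 in log2(RPKM + 0.5) was 0.09 for 1457 genes counted over at least 200 and under 1000 bases and -0.33 for 169 genes of at least 10000 bases. The same medians for control 3 minus control 1 were 0.05 and -0.17. Of the 169 longest genes, 16.0% were higher in control 2 than in control 1. Ttn, titin, the molecular spring counted over 104901 bases, had 54.5, 26.9 and 44.7 RPKM, and Neb, nebulin, the ruler of the thin filament, 281, 175 and 227. Ryr1, Cacna1s and Scn4a had the same order, and so did Dmd, dystrophin, with 11.8, 7.29 and 9.95. The part of length in these differences was not tested.

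**Figure D5:**
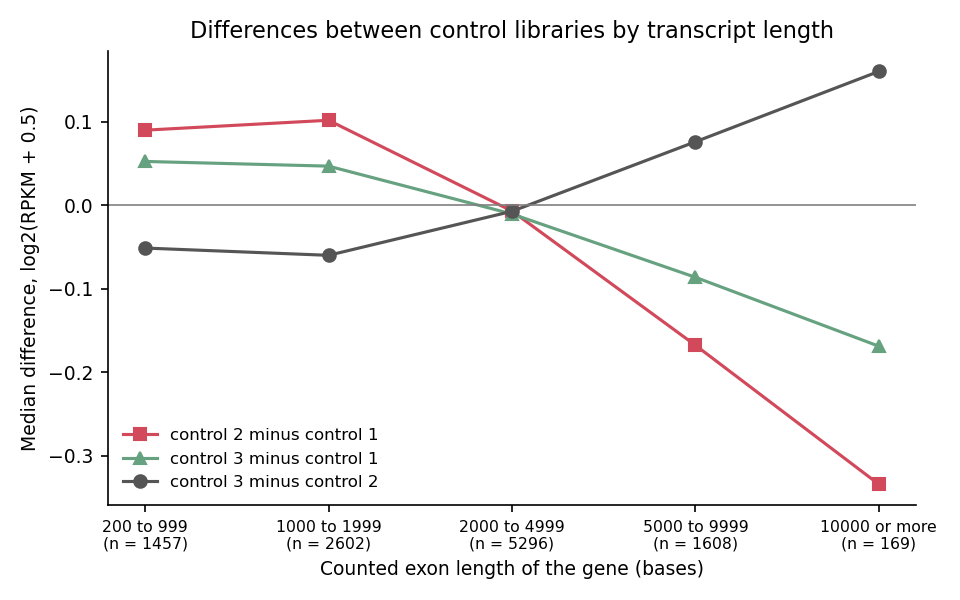
Median difference between pairs of control libraries in log2(RPKM + 0.5) for genes with a mean of at least 1 RPKM, in 5 ranges of counted exon length, with the number of genes in each range. The medians of control 2 minus control 1 go from 0.09 and 0.10 in the shortest ranges to -0.33 in the longest, while control 3 minus control 2 goes the other way.

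At the other end stood genes that hardly differed between the libraries. Among genes with a mean of at least 50 RPKM, Rab7, a GTPase of late endosomes, had the smallest SD on the log2 scale, with 82.2, 82.3 and 82.4 RPKM. Mmadhc, of vitamin B12 metabolism, had 89.8, 89.4 and 89.7, and Sgca, alpha-sarcoglycan of the dystrophin complex, 101, 102 and 102. These genes were picked for the smallest SD over the same 3 libraries, so a list fixed beforehand is bound to look less steady. The coefficients of variation of Rab7 and Mmadhc, 0.168% and 0.242%, were below the 0.963% and 0.794% from counting alone. That of Sgca, 0.721%, was close to its 0.701%. They are not put forward as better reference genes. Of 17 common reference genes, 14 were lowest in control 1, against 40.4% of all genes with a mean of at least 1 RPKM. Ppia had 181, 297 and 268 RPKM and Tfrc, the transferrin receptor, 77.2, 43.5 and 41.4, whereas Polr2a, the largest subunit of RNA polymerase II, varied little with 8.05, 8.08 and 8.16.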

How the data were processed

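RNA of plantaris muscle was read from 3 control libraries, grouped and numbered by their titles. FastQC, TopHat2, Bowtie2, SAMtools and bedtools and build mm9 are named in the submitters' processing notes, while no source used here gives the counter, its use of strand or its treatment of reads with several matches. As deposited, the table gives RPKM per library, a unit recognised from the values, and the largest raw count of each gene over all 9 libraries. Whole reads were recovered, within 0.1 read, for 100% of the 13134 control values of at least 1 and under 500 reads, each RPKM standing for the reads plus 1. The 523 control values at 0 reads carry instead a fixed level that is the same in every library for a gene. The exposed libraries entered only this recovery, through the largest count and the steps. Recovered totals of 109220432 to 124371299 reads exceed the read numbers that the labels state per sample, which was not resolved, so the totals describe relative depth, and counting errors take each counted read as independent.

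A single group gives no test, so results are levels, ranks, shares and spread, with SDs over 3 libraries. Spread used log2(RPKM + 0.5) and genes with a mean of at least 1 RPKM, on which a fold understates differences of low genes. Family and class shares are sums of RPKM over lists. Recovery and spread were tested on simulated data. Named are the 40 most abundant genes, members of 71 families and 7 classes, 60 genes with the widest range by pattern among those with a mean of at least 5 RPKM, and the 10 steadiest of at least 50 RPKM. Of the 60, 18 are counted over fewer than 200 bases, where a few reads set the RPKM, and they are given no values. Gm12070, Csda and the kinases and long RNA of the class column were named after their values were seen. Members and lists were chosen with earlier results of these data known. Promoter windows matched 69 of the 100 most abundant genes and 9430 of 13722 in all, under 80%, so a comparison of motif shares between sets is void and none is given. Alternatives changed the ranking, scaling, filter, pseudocount and each library in turn. Python 3.11.15, numpy 2.4.6, pandas 2.3.3 and matplotlib 3.10.9 were used. Some members are not reported here, and 3 of the 68 families are not drawn.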

Additional observations from a re-analysis of the deposited data

How the results depend on the processing

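No paired analysis was possible because the 3 control libraries form a single group and no comparison was made. With each library left out in turn, the share of the 10 most abundant genes lay between 28.7% and 29.3% and that of the 100 most abundant between 52.5% and 52.9%, while the count of genes at least 2-fold apart went from 174 to 647. Of 476 results under an alternative, 407 stayed within 1 SD or, for counts, within 1.5 times. Family, class and marker results with 1 of the 3 libraries left out could not move by 1 SD by construction. They are counted in the 407 and test nothing. Ranked by recovered reads, in which length weighs, the 10 and 100 leading genes held 23.2% and 48.5% of reads. Those leading by RPKM held 18.1% and 44.2% of them, and electron transport 4.16%. Without overlapping genes the leading shares were 25.9% and 49.96%, and without genes counted over fewer than 200 bases, an alternative chosen after seeing the data, the 100 leading genes held 53.7%. Leaving the 10 most abundant genes out of the total, which holds Aldoa and Gapdh, gave glycolysis 3.66% and electron transport 9.85%. Rescaling each library to the same sum, which raises every RPKM by construction, gave 6186, 1052 and 111 genes at 10, 100 and 1000 and 1387 genes at least 2-fold apart. With a mean of at least 5 RPKM, 321 genes were at least 2-fold apart. Of 68 leading shares, 39 moved by over 1 SD on recovered reads, 10 of them by over 10 points, and none on median levels. The share on median levels is the leading member's median over the sum of the members' medians. Each gene's median uses the same 3 values as its mean and lies within 1 SD of it, so that result says little. Depth limits genes at a few reads, and 343 genes had no read in at least 1 control.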
